A study of Mus musculus with 12 samples.

Results

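Transcripts of 55 genes of ribosome biogenesis and RNA polymerase I transcription were followed in MIN6 cells, an insulin-secreting mouse insulinoma line that stands in for β-cells. The genes were taken by name from a list of factors of nucleolar transcription, ribosomal RNA processing and subunit assembly, with no threshold on their values. The choice was made with earlier results of these data known. All 55 were found among 49315 genes in the count files, and all 55 passed the filter on low counts, with a mean of 302 to 7974 reads per library. The 12 RNA sequencing libraries fall into 4 groups of 3, all from wild-type MIN6 cells that were grown in DMEM with 15% FBS and 2 mM glutamine. Control cells are labelled ctrl with no treatment named, starved cells had no amino acids for 16 h, re-added cells received amino acids again for 3 h, and the last group, called Rap libraries here, received amino acids and "Rap" for 3 h. Neither the full name nor the dose of Rap is in the labels, and the time without amino acids before their return is not stated for the last 2 groups. Whether replicate libraries stem from independent cultures is not stated either, so the p-values speak of the variation among libraries, and that may be technical. The series title names mTORC1, the kinase complex that senses amino acids, and the questions are which of these genes moved without amino acids, on their return, and with Rap.

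Ribosome assembly starts in the nucleolus. RNA polymerase I transcribes a long precursor of the 18S, 5.8S and 28S ribosomal RNAs, guided by the upstream binding factor UBTF and the initiation factor RRN3. Small nucleolar RNA-protein particles (snoRNPs) methylate and pseudouridylate the precursor, the small subunit processome folds and cleaves its 5′ part, and separate sets of factors mature the 40S and 60S subunits. The pathway uses much of the energy of a growing cell. It is known to depend on nutrients through mTORC1, and many of its genes are known targets of MYC, a transcription factor that binds the E-box CACGTG together with MAX.

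The E-box is shown first because it is the sequence to which MYC, its repressive relatives MNT, MXI1 and MXD4, and their shared partner MAX bind, and transcripts of these factors are described at the end. RefSeq promoter windows of 300 bases (250 before to 50 after a gene's start, GRCm38.p6, the build that the submitters' processing notes name for the files) were matched for 46 of the 55 genes, 55 windows in all. CACGTG, which reads the same on both strands, was in 11 of these windows (20%), against 9.28% of 15449 windows of the genes tested here and 7.15% of all 32851 windows. Of the 12 sites in the 55 windows, 8 (66.7%) lay downstream of the start, against 13.7% of 1597 sites in the windows of genes tested. The sites of the 5 genes of this set that hold it after the start and fell most with Rap are given below, and after them the sites nearest to the start of Rrn3 and Nop2, where it lies upstream. The capitals mark the E-box, with up to 12 bases on each side, on the gene's strand and cut at the end of the window.
Grwd1: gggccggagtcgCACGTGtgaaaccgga
Tsr1: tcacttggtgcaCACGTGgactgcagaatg
Utp20: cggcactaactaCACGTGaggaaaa
Ltv1: gccctgtggaccCACGTGtggagctgccgg
Wdr43: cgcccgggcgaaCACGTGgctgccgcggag
Rrn3: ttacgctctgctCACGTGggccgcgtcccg
Nop2: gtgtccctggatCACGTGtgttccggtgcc
They lie at chr7:45830740-45830767 (minus strand, 34 bases after the start) for Grwd1, chr11:74898092-74898121 (plus, 24 after) for Tsr1, chr10:88826765-88826789 (minus, 37 after) for Utp20 and chr10:13193092-13193121 (minus, 28 after) for Ltv1. The Wdr43 site is at chr17:71616220-71616249 (plus, 17 after), that of Rrn3 at chr16:13780639-13780668 (plus, 42 before) and that of Nop2 at chr6:125131811-125131840 (plus, 54 before). A match is only a description of the letters in these windows, not a binding site.

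The other 8 motifs searched, on both strands, were found at different shares. The ETS family motif CCGGAAG was in 36.4% of the 55 windows, against 15.2% for genes tested, and the E-box variant CACGCG in 29.1% against 15.7%. GGGCGG (the GC box) was in 67.3% against 58.9%, and ATTGG (the CCAAT box) in 30.9% against 37.1%. The GC box is a common feature of promoters, and its share here was the highest of the 9. A long YY1 motif was in 1.82%, in Grwd1, against 1.24%. The NRF1 motif, the CGCG element and the YY1 motif GCCATCTTG were in none of the 55 windows, and in 1.79%, 0.822% and 1.91% of the windows of genes tested. The motifs can stand in the same window, so these shares are not independent.

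The libraries held 18555958 to 25631056 counted reads, and 16844 genes were tested. Values are given in CPM (counts scaled to a common library total, with TMM factors), and levels of different genes are compared only in TPM, which divides by exon length. β-cell transcripts were abundant in all 12 libraries (16 of 16 markers detected, summed 49678 to 76134 CPM), although the β-cell markers Slc2a2 and Ucn3 stayed at 1.01 to 10.5 and 0.424 to 1.48 CPM. Transcripts of cells that a β-cell line should not hold differed between libraries. The 30 markers of fibroblasts, leukocytes and endothelium, all 30 detected, summed to 1196, 1422 and 1375 CPM in control, 1176, 92.6 and 559 in starved, 492, 86.1 and 83.7 in re-added and 83.5, 82 and 79.2 in Rap libraries. The 8 lung epithelium markers summed to between 1890 CPM in control replicate 2 and 44.7 in Rap replicate 3. These transcripts stand apart in the control libraries, starved replicates 1 and 3 and re-added replicate 1, and their part in the results below was not tested beyond comparisons of matched libraries and fits with the marker sum as a covariate. Matching used starved replicate 1 against the controls, re-added replicates 2 and 3 against starved replicate 2, and the Rap libraries against re-added replicates 2 and 3. A starved library that stands alone there is assumed to vary like the control, re-added and Rap libraries, from which the spread comes. Of 10 markers of other pancreatic cells 7 were detected, led by Gcg (136 to 283 CPM), and Cela3b, Amy2a2 and Ptf1a were at 0. In RNA from whole cultures, fewer cells of a type and less RNA per cell cannot be told apart, and CPM is a share of all reads, not an amount per cell.

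By transcripts per length, the set spans a wide range. The mean over 12 libraries was highest for Rrp1 (405 TPM), a nucleolar factor of ribosomal RNA processing, followed by the nucleolar chaperone Npm1 (370), Nop10 (209), Imp3 (178) and Ncl (102). These were the 5 genes at 100 TPM or more, 48 lay between 10 and 100 TPM, and Rrp1b (9.03) and Wdr12 (6.67) were below 10. The median was 40.1 TPM. Neighbours in this order often did not separate: the libraries of Rrp1 ran from 334 to 482 TPM and those of Npm1 from 288 to 418. The paralogs Rrp1 and Rrp1b, by contrast, did not overlap in level in any library, while Gnl2 and Gnl3 stood at 51.6 and 53 TPM and Nop56 and Nop58 at 85.5 and 30.6.

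The level of the set as a whole peaked in the re-added libraries. Summed over the 55 genes as a share of all reads, it was 3502, 3445 and 3411 CPM in control, 3888, 3947 and 3873 in starved, 4596, 4675 and 4654 in re-added and 3486, 3363 and 3364 in Rap libraries. The Rap libraries overlapped the controls, and the starved libraries lay between the controls and the re-added libraries. Starved replicates 1 and 2, which differed more than any other pair of 1 group in the markers of other cells (1176 against 92.6 CPM), stood at 3888 and 3947 CPM in this sum. They are only 1 pair of libraries, and whether transcripts of other cells bear on the sum was not tested. The mean of the re-added group was the highest of the 4 for 44 of the 55 genes, against 18.2% of all genes tested. It was highest in control for 6 genes, in starved for 5 and in Rap for 0. The lowest mean was in control for 28 genes, in Rap for 13, in starved for 11 and in re-added for 3. In an F test across the 4 groups (edgeR's quasi-likelihood test, Benjamini-Hochberg adjusted p under 0.05) 54 of 55 genes differed, against 71.9% of all genes tested, and Nip7 did not (adjusted p = 0.188).

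**Figure D1:**
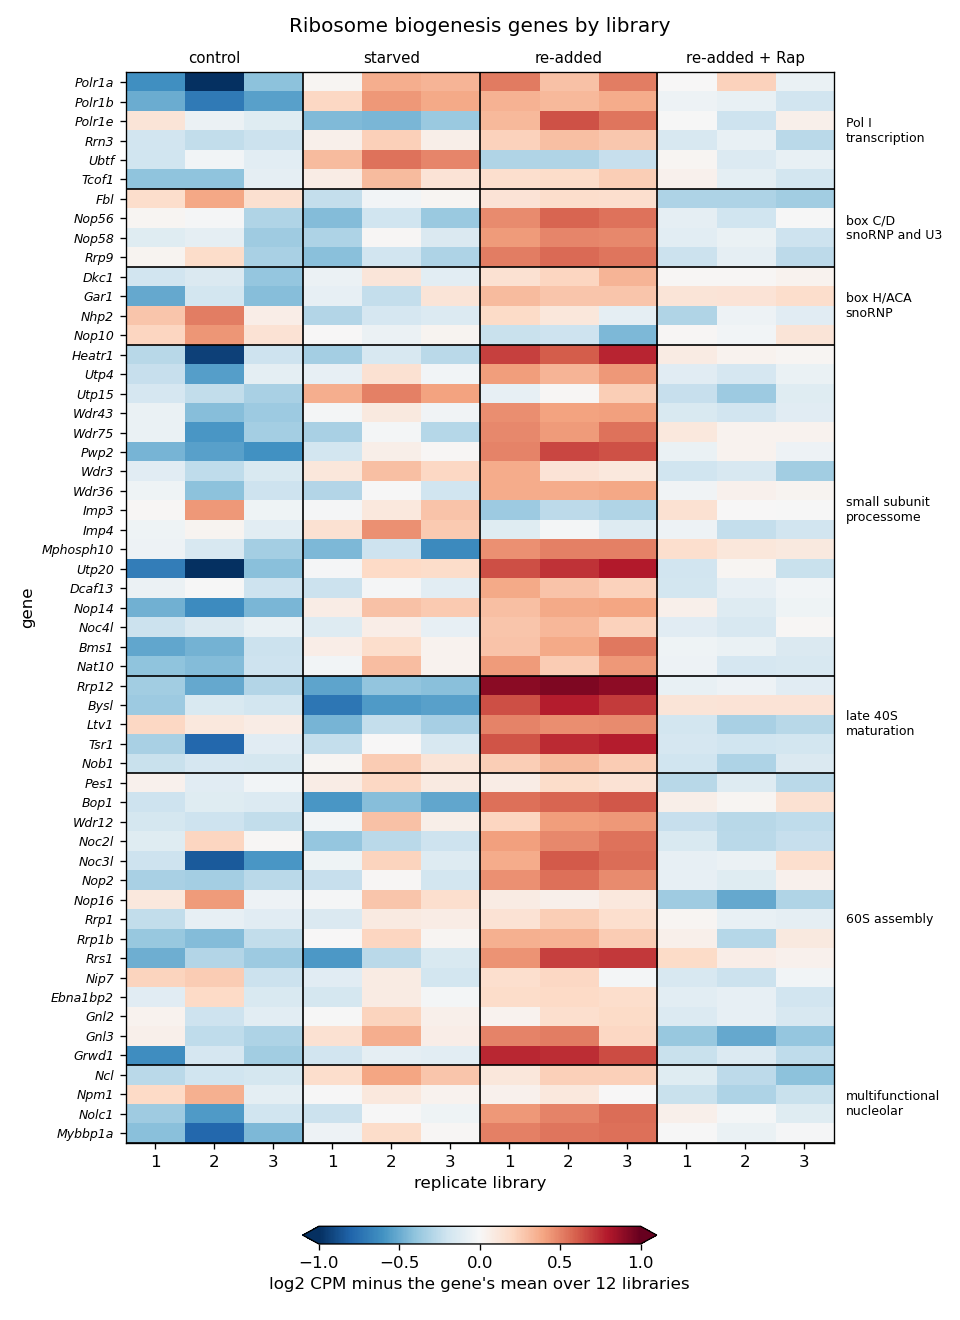
Each row is 1 of the 55 genes, ordered by role, and each column 1 of the 12 libraries. Colour is the log2 CPM minus the gene's mean over all libraries, with values beyond -1 and 1 shown at the end colours. The 3 re-added columns are the highest for most rows, with Ubtf, Nop10 and Imp3 among the exceptions.

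Without amino acids, more of these genes were higher than lower, but by small amounts. Against control, 24 of the 55 rose and 8 fell in the starved libraries at an adjusted p under 0.05 in edgeR's quasi-likelihood test, where 24.3% of all genes tested rose and 14.6% fell. The median log2 fold change of the 55 was 0.18, against 0.01 for all genes tested, and single genes ran from -0.49 to 0.95. The 3 starved libraries lay above all controls for 25 genes and below them for 8, against 27.5% and 22.6% of all genes tested. In starved replicate 1 against the controls, libraries with a like sum of other-cell markers, 9 genes rose and 5 fell, where 10.1% and 10.4% of all genes tested did, and the median was 0.11. The split of 24 and 8 was 21 and 11 with DESeq2, 20 and 11 with RLE factors and 17 and 12 with upper-quartile factors. Rises and falls over all genes tested were 3707 and 3006, 3524 and 2973, and 2961 and 3679 in these fits. The main fit gave 4101 and 2458. The calls of Utp4, Gar1, Nolc1, Wdr43 and Gnl3 were lost in 10 to 18 of 20 alternatives. Longer transcripts stood higher in this comparison: the rank correlation of fold change with exon length was 0.52 over the 55 genes and 0.28 over all 16844, a description across genes that share the same libraries.

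Giving amino acids back raised a larger share of the set. Of the 55 genes 30 rose and 5 fell in the re-added against the starved libraries (edgeR's quasi-likelihood test, adjusted p under 0.05), where 18.4% of all genes tested rose and 18.8% fell. The median log2 fold change was 0.31, against -0.06 for all genes tested, and the range was -0.73 to 1.36. The re-added libraries lay above all starved ones for 35 genes and below them for 5 (25.7% and 24.9% of all genes tested). In the matched libraries, with a single starved library, 18 genes rose and 2 fell, where 8.42% and 13.6% of all genes tested did, and the median was 0.22. The calls of Dkc1, Fbl and Nop10 were lost in 6 to 10 of 20 alternatives.

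With Rap present during re-addition, most of the set was lower than with amino acids alone. Of the 55 genes 37 fell and 1 rose (edgeR's quasi-likelihood test, adjusted p under 0.05), where 3.43% of all genes tested fell and 4.55% rose. The median log2 fold change was -0.47, against 0.00 for all genes tested, and the range was -0.99 to 0.36. All 3 Rap libraries lay below all re-added ones for 50 genes and above them for 3, and only 2 genes overlapped (17.2% and 21.7% of all genes tested lay below and above). In the matched libraries 32 genes fell and 0 rose in edgeR's test, where 2.46% and 3.53% of all genes tested did, and the median was again -0.47. The calls of Nop10, Wdr75, Wdr36 and Nop16 were lost in 8 to 14 of 20 alternatives. Without Rap replicate 2 the count of genes that fell was 26. Without control replicate 2, which shares the fit but is not in the comparison, it was 44. Falls over all genes tested were 253 and 890 in these fits, against 578 in the main fit. The comparisons share libraries, so the rise on re-addition and the fall with Rap both rest on the same 3 re-added libraries.

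**Figure D2:**
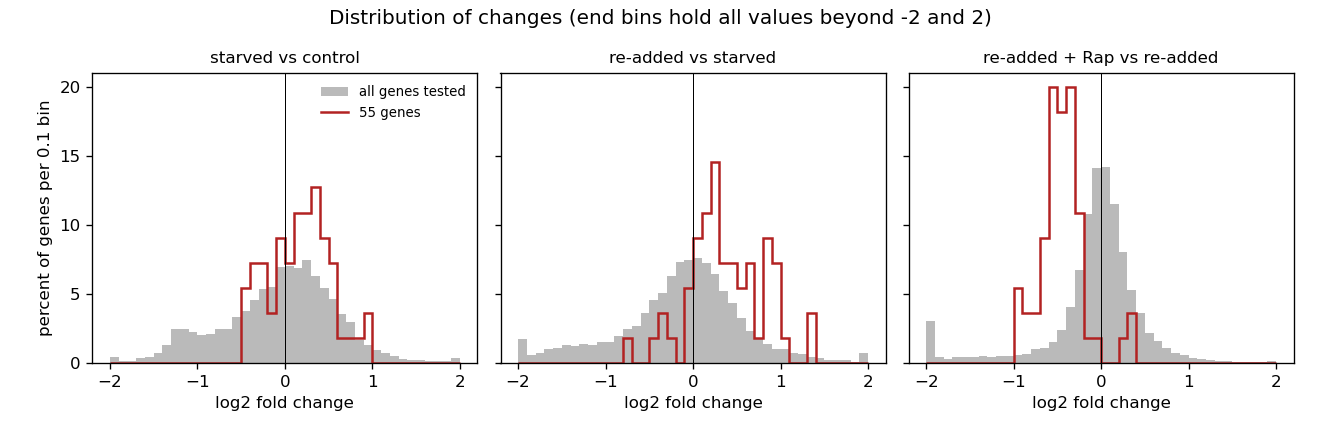
Distribution of log2 fold changes in bins of 0.1 for the 55 genes (red line) and all 16844 genes tested (grey), as percent of each set, in the 3 main comparisons. With Rap against re-added the 55 genes form a peak left of 0, with a median of -0.47, while the grey distribution is centred at 0. The first and last bins hold all values beyond -2 and 2.

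RNA polymerase I and its factors did not move as a block. Of 6 genes in this role, 5 rose and 1 fell without amino acids, 1 rose and 1 fell on re-addition, and 3 fell with Rap. Over all genes tested, 24.3% rose and 14.6% fell without amino acids, 18.4% and 18.8% on re-addition, and 4.55% and 3.43% with Rap. The counts of this role and of the roles below are to be read beside these shares. Polr1a (chromosome 6, 71909053 to 71984935, plus strand), the largest subunit of the enzyme, had 32, 21.6 and 36.8 CPM in control, 49.6, 62.9 and 62.1 in starved, 70.1, 60.1 and 70 in re-added and 49.1, 57.4 and 46.8 in Rap libraries. Its controls lay below all other libraries, with control replicate 2 the lowest, and it rose without amino acids (log2 fold change 0.95, SE 0.17, adjusted p = 0.000999) and did not change detectably on re-addition (adjusted p = 0.354). Polr1b, the second largest subunit, had 15.2, 13.1 and 14.7 CPM in control, 24.7, 28.9 and 27.8 in starved, 27.3, 26.8 and 27.7 in re-added and 20.7, 20.4 and 18.8 in Rap libraries. It rose in the starved libraries (log2 fold change 0.92, SE 0.09, adjusted p = 1.68e-05), overlapped them on re-addition (0.01 ± 0.09 on the log2 scale) and was lower with Rap (log2 fold change -0.45, SE 0.09, adjusted p = 0.00872). Polr1e, a subunit specific to RNA polymerase I, went the other way without amino acids. It had 15, 13.2 and 12.6 CPM in control, 10.1, 10 and 10.6 in starved, 17.2, 21.3 and 19.9 in re-added and 13.7, 11.9 and 14.2 in Rap libraries, so that the starved libraries lay below all others. It fell without amino acids (log2 fold change -0.41, SE 0.12, adjusted p = 0.0134), rose on re-addition (log2 fold change 0.93, SE 0.11, adjusted p = 7.25e-05) and fell with Rap (log2 fold change -0.55, SE 0.11, adjusted p = 0.0113).

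Of the factors that bring the polymerase to ribosomal DNA, Ubtf fell on re-addition, where most called genes of the set rose. Ubtf (chromosome 11, 102304560 to 102319742, minus strand), which binds the promoter and body of ribosomal RNA genes, had 133, 150 and 142 CPM in control, 190, 223 and 214 in starved, 124, 124 and 130 in re-added and 155, 139 and 145 in Rap libraries. The starved libraries were the highest and the re-added ones the lowest, without overlap with any other group. Ubtf rose without amino acids (log2 fold change 0.56, SE 0.08, adjusted p = 0.000182) and fell on re-addition (log2 fold change -0.73, SE 0.08, adjusted p = 2.16e-05), the largest fall of the 55 genes there. Rrn3, the initiation factor that links the polymerase to its promoter, had 59.3, 57.1 and 58.2 CPM in control, 69.9, 79.9 and 70.4 in starved, 79.3, 83.1 and 81.6 in re-added and 60.4, 64.2 and 56.2 in Rap libraries. The starved and re-added values overlapped, and the Rap values lay below both (log2 fold change -0.43, SE 0.07, adjusted p = 0.00325 against re-added). Tcof1, the nucleolar protein treacle, rose by 0.47 ± 0.10 on the log2 scale without amino acids (adjusted p = 0.00317) and passed the test in neither other main comparison.

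The 4 box C/D snoRNP genes moved alike on re-addition: all 4 rose with amino acids and all 4 fell with Rap, while 1 fell and 3 did not pass the test without amino acids. The rise of Fbl on re-addition (log2 fold change 0.24, SE 0.08, adjusted p = 0.0374) was lost in 8 of 20 alternatives. Fbl encodes fibrillarin, the methyltransferase of these particles, and had 136, 157 and 134 CPM in control, 102, 118 and 122 in starved, 132, 136 and 135 in re-added and 97.2, 97 and 94.2 in Rap libraries. It fell without amino acids (log2 fold change -0.32, SE 0.08, adjusted p = 0.00735), and its Rap libraries were the lowest of all. Nop56 and Nop58 are paralogous core proteins of the same particle. Nop56 had 125, 122 and 100 CPM in control, 91.2, 107 and 95.1 in starved, 171, 184 and 179 in re-added and 116, 107 and 123 in Rap libraries, with the re-added libraries above all others. Nop56 rose on re-addition (log2 fold change 0.86, SE 0.09, adjusted p = 2.85e-05) and fell with Rap (log2 fold change -0.63, SE 0.09, adjusted p = 0.00179). Nop58 had 107, 109 and 90.9 CPM in control, 94, 117 and 105 in starved, 156, 163 and 162 in re-added and 108, 111 and 101 in Rap libraries. Nop58 stood at 0.61 ± 0.09 on re-addition and -0.59 ± 0.09 with Rap on the log2 scale, and whether the pair differs was not tested. Exons of Nop56 overlap snoRNA genes and the antisense gene Idh3b over 8.1% of their bases, and reads there cannot be told apart. Rrp9, the protein that marks the U3 snoRNP, rose on re-addition (0.84 ± 0.12 on the log2 scale) and fell with Rap (-0.72 ± 0.12).

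The 4 core proteins of box H/ACA snoRNPs, which guide pseudouridylation and also sit in telomerase, moved differently from one another. In starvation 1 rose and 2 fell, after re-addition 2 rose and 1 fell, while Rap raised 1 and lowered 0 (in edgeR's test; the 3 others were at -0.14 to -0.23). Nop10, the smallest of them, had 96.8, 113 and 92.2 CPM in control, 83.8, 80 and 84.8 in starved, 71.6, 72.1 and 61 in re-added and 84.1, 81.9 and 91.4 in Rap libraries. It fell without amino acids (adjusted p = 0.028) and fell again on re-addition (adjusted p = 0.0284), where the re-added libraries lay below all others. It was the only 1 of the 55 genes that rose with Rap (log2 fold change 0.33, SE 0.09, adjusted p = 0.0446), and this call was lost in 14 of 20 alternative analyses. Nhp2 had 48.5, 57 and 42 CPM in control, 32.7, 35.6 and 36.4 in starved, 45.7, 43.2 and 37.5 in re-added and 32.4, 38.6 and 37 in Rap libraries. Starved cells had less of it (log2 fold change -0.49, SE 0.12, adjusted p = 0.00566), and its later changes did not pass the test. Dkc1, the pseudouridine synthase dyskerin, and Gar1 rose on re-addition by 0.25 ± 0.09 and 0.35 ± 0.10 on the log2 scale, and Dkc1 lost this call in 10 of 20 alternatives.

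The small subunit processome was the largest role, with 17 genes. Of these 10 rose and 0 fell without amino acids in edgeR's test, 11 rose and 3 fell on re-addition, and 13 fell and 0 rose with Rap. Utp20, a large scaffold protein, had 20, 16 and 24.2 CPM in control, 32.1, 37.2 and 36.7 in starved, 50.5, 53.3 and 56.1 in re-added and 28.3, 32.8 and 27.7 in Rap libraries. The groups rose stepwise from control to starved to re-added without overlap, and Utp20 was higher without amino acids (log2 fold change 0.81, SE 0.13, adjusted p = 0.000566), higher again on re-addition (log2 fold change 0.59, SE 0.13, adjusted p = 0.00362) and lower with Rap (log2 fold change -0.85, SE 0.13, adjusted p = 0.0021). Nop14 had 30.1, 27.2 and 30.6 CPM in control, 44.4, 51.5 and 50.4 in starved, 51.9, 54.6 and 55.2 in re-added and 43.5, 38.6 and 40.9 in Rap libraries. It rose without amino acids (log2 fold change 0.73, SE 0.08, adjusted p = 4.70e-05), passed no test on re-addition (adjusted p = 0.177) and fell with Rap (log2 fold change -0.40, SE 0.08, adjusted p = 0.0109). Dcaf13, the most abundant of the role per length after Imp3, had 37.9, 39.2 and 34.1 CPM in control, 33.9, 39.1 and 36.5 in starved, 51.3, 47.9 and 46.1 in re-added and 34.7, 37.2 and 38.7 in Rap libraries. Its control, starved and Rap values overlapped, and the re-added ones lay above all of them (log2 fold change 0.41, SE 0.08, adjusted p = 0.0025 against starved).

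Within the processome, subcomplexes could be followed. Of 5 genes of UTP-A, which binds the nascent precursor first, 4 rose on re-addition (Heatr1 0.94 ± 0.15, Wdr75 0.69 ± 0.12, Wdr43 0.41 ± 0.09 and Utp4 0.38 ± 0.10 on the log2 scale) and Utp15 fell. Utp15 had 32.1, 30.3 and 28.8 CPM in control, 46.3, 51 and 47.6 in starved, 34, 36.3 and 42.8 in re-added and 30.7, 28 and 33.1 in Rap libraries. Its starved libraries were the highest of all, and it rose without amino acids (log2 fold change 0.67, SE 0.10, adjusted p = 0.000292) before it fell on re-addition (log2 fold change -0.36, SE 0.10, adjusted p = 0.0129). All 4 others of UTP-A fell with Rap, by 0.43 to 0.64 on the log2 scale, a call that Wdr75 lost in 9 of 20 alternatives. Of 3 genes of UTP-B, Pwp2 and Wdr36 rose on re-addition (0.63 ± 0.08 and 0.54 ± 0.09), Wdr3 stood at 0.00 ± 0.09, and all 3 fell with Rap, a call that Wdr36 lost in 8 of 20 alternatives. Wdr3 lost it in 2, the matched libraries among them. Exons of Wdr3 overlap the antisense genes Gdap2 and Spag17 over 16.2% of their bases, and reads there cannot be told apart.

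The 3 partners of the MPP10 complex, which associates with the U3 snoRNA in the processome, parted on re-addition. Mphosph10, the protein that gives it its name, rose from 26.4 ± 3.95 to 49.4 ± 0.786 CPM (mean ± SD, n = 3, log2 fold change 0.91, SE 0.11, adjusted p = 4.59e-05 in edgeR's test). Imp3 had 59.5, 79.7 and 57.2 CPM in control, 58.6, 63.6 and 72 in starved, 45.8, 49.2 and 47.9 in re-added and 65.8, 59.1 and 59 in Rap libraries, with all 3 re-added libraries below every other library, and fell (log2 fold change -0.44, SE 0.12, adjusted p = 0.0125). Imp4 had 49.4, 51.7 and 47.3 CPM in control, 56.4, 69.7 and 60.9 in starved, 46.8, 50.2 and 46.6 in re-added and 49.1, 43.1 and 44.6 in Rap libraries. Imp4 rose without amino acids (log2 fold change 0.33, SE 0.09, adjusted p = 0.00926) and fell on re-addition (log2 fold change -0.38, SE 0.09, adjusted p = 0.00452), where the re-added libraries overlapped the control and Rap libraries. None of the 3 passed the test with Rap in edgeR's fit.

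Genes of late 40S maturation included the largest rise on re-addition and the largest fall with Rap. Of 5 genes, 4 rose and 0 fell on re-addition and 5 fell with Rap, while 1 rose and 2 fell without amino acids. Rrp12 (chromosome 19, 41862852 to 41896153, minus strand), an export and maturation factor of pre-ribosomes, had 27.3, 24.4 and 28.4 CPM in control, 24.2, 26.5 and 26.1 in starved, 65, 66.6 and 64.9 in re-added and 33, 33.7 and 32.2 in Rap libraries. Control and starved values overlapped, the re-added libraries were more than 2-fold higher, and the Rap libraries lay between them. Rrp12 held both of these places among the 55 genes (log2 fold change 1.36, SE 0.07, adjusted p = 1.62e-07 and log2 fold change -0.99, SE 0.07, adjusted p = 1.25e-05). Bysl, the pre-40S factor bystin, had 35, 40.4 and 39.5 CPM in control, 27.3, 30.3 and 30.9 in starved, 70.4, 77.4 and 72.9 in re-added and 49.1, 49.5 and 49.4 in Rap libraries. It fell without amino acids (log2 fold change -0.38, SE 0.08, adjusted p = 0.00252), rose on re-addition (log2 fold change 1.32, SE 0.08, adjusted p = 2.95e-07) and fell with Rap (log2 fold change -0.58, SE 0.08, adjusted p = 0.000775), but its Rap libraries stayed above all starved and control ones. Exons of Bysl overlap the antisense gene Ccnd3 over 9.4% of their bases.

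Tsr1, a GTPase-like factor of cytoplasmic pre-40S particles and the most abundant transcript of this role but for Ltv1, had 41.8, 30.4 and 48.5 CPM in control, 44.3, 52.5 and 46.9 in starved, 81.1, 87.9 and 90.2 in re-added and 46.5, 45.6 and 46 in Rap libraries. Control replicate 2 was the lowest, and the re-added libraries lay far above the other 9. It rose on re-addition (log2 fold change 0.85, SE 0.13, adjusted p = 0.000381) and fell with Rap (log2 fold change -0.91, SE 0.13, adjusted p = 0.00155). Over 32.3% of its exon bases lie in the antisense gene Srr, whose reads cannot be told apart from its own. Ltv1, which must leave the particle for it to mature, had 36.9, 34.4 and 33.6 CPM in control, 23.1, 27.1 and 25.4 in starved, 45, 44.1 and 44.3 in re-added and 28.2, 25.5 and 26.3 in Rap libraries. In starvation it fell (log2 fold change -0.47, SE 0.08, adjusted p = 0.000658), rose on re-addition (log2 fold change 0.82, SE 0.08, adjusted p = 1.08e-05) and fell with Rap (log2 fold change -0.74, SE 0.08, adjusted p = 0.000184), where its values overlapped those of the starved libraries. Nob1, the nuclease that makes the end of 18S ribosomal RNA, rose without amino acids (0.33 ± 0.08 on the log2 scale), passed no test on re-addition and fell with Rap (-0.49 ± 0.08).

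**Figure D3:**
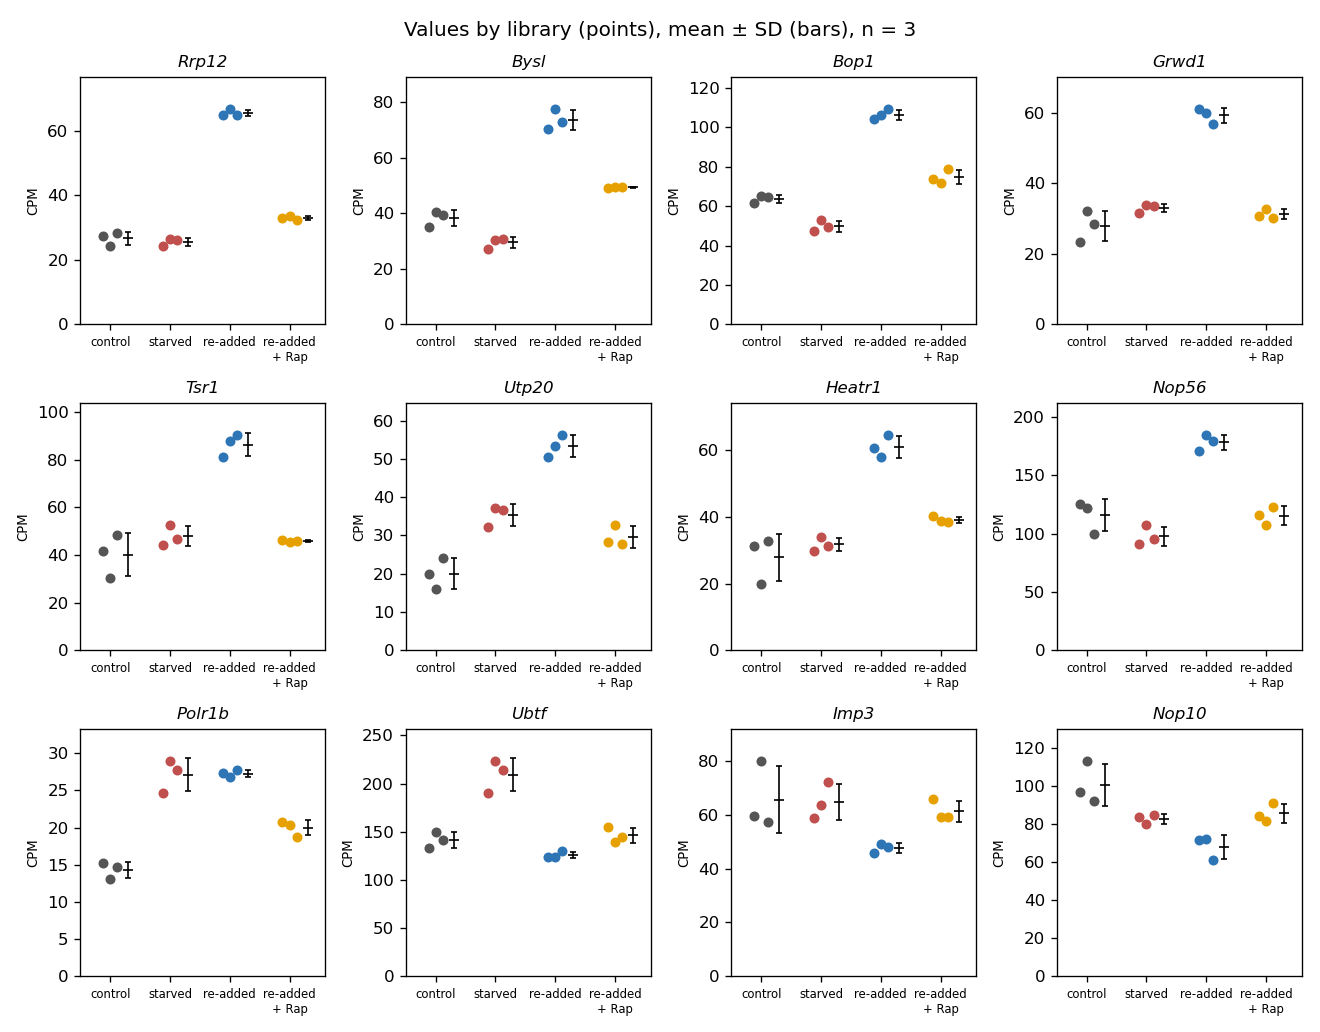
CPM of 12 genes in each library (points) with mean ± SD (bars, n = 3), on axes from 0. The first 8 genes have their highest group in the re-added libraries, Polr1b is as high in starved as in re-added libraries, and Ubtf, Imp3 and Nop10 have their lowest group there.

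Of 15 genes of 60S assembly, 4 rose and 2 fell without amino acids, 6 rose and 0 fell on re-addition, and 9 fell and 0 rose with Rap, all in edgeR's test. Without amino acids these counts were near the shares of all genes tested, of which 24.3% rose and 14.6% fell. Those shares were 18.4% and 18.8% on re-addition, and 4.55% and 3.43% with Rap. Bop1 (chromosome 15, 76452996 to 76477269, minus strand), a scaffold of the PeBoW complex, had 61.4, 65.2 and 64.4 CPM in control, 47.3, 52.7 and 49.3 in starved, 104, 106 and 109 in re-added and 73.9, 71.7 and 78.7 in Rap libraries. In starvation it fell (log2 fold change -0.36, SE 0.06, adjusted p = 0.00112), rose on re-addition (log2 fold change 1.1, SE 0.06, adjusted p = 2.95e-07) and fell with Rap (log2 fold change -0.51, SE 0.06, adjusted p = 0.000543) to a level above all controls. Its 2 partners in that complex did not follow on re-addition: Pes1 stood at 0.01 ± 0.07 and Wdr12 at 0.25 ± 0.09 on the log2 scale (adjusted p = 0.92 and 0.0533). All 3 fell with Rap, Wdr12 by the largest amount (-0.61 ± 0.09). Rrs1, a factor that brings the 5S RNA particle into the subunit, had 28.9, 33.1 and 31.5 CPM in control, 27.3, 33.7 and 36.5 in starved, 55.4, 65.1 and 66.3 in re-added and 46.2, 42.4 and 41.7 in Rap libraries. Its re-added libraries were the highest (log2 fold change 0.94, SE 0.11, adjusted p = 5.24e-05 against starved). With Rap it was lower (log2 fold change -0.52, SE 0.11, adjusted p = 0.0132) but above all starved libraries.

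Grwd1, a histone-binding WD repeat protein of pre-60S particles, had 23.5, 32.1 and 28.4 CPM in control, 31.6, 33.9 and 33.5 in starved, 61, 60.1 and 56.8 in re-added and 30.9, 32.8 and 30.3 in Rap libraries. The re-added libraries lay above all 9 others, and starved and Rap values overlapped. Grwd1 rose on re-addition (log2 fold change 0.85, SE 0.10, adjusted p = 5.24e-05) and fell with Rap (log2 fold change -0.92, SE 0.10, adjusted p = 0.000222). Noc2l had 54.2, 68.3 and 59.3 CPM in control, 45.1, 48.9 and 51 in starved, 78.3, 82.2 and 85.7 in re-added and 53, 48.9 and 50.2 in Rap libraries. In starvation it fell (log2 fold change -0.33, SE 0.09, adjusted p = 0.0115), rose on re-addition (log2 fold change 0.76, SE 0.09, adjusted p = 4.15e-05) and fell with Rap (log2 fold change -0.69, SE 0.09, adjusted p = 0.000597); 20.9% of its exon bases overlap Samd11. Rrp1, the most abundant gene of the set, had 247, 276 and 270 CPM in control, 265, 311 and 308 in starved, 323, 347 and 328 in re-added and 296, 278 and 274 in Rap libraries. It passed the test in none of the 3 main comparisons, although its re-added libraries lay above all starved ones. Its paralog Rrp1b had 18.9, 18.2 and 20.7 CPM in control, 24.7, 28.6 and 25 in starved, 31.5, 31.3 and 29.4 in re-added and 25.5, 20.2 and 26.3 in Rap libraries. Rrp1b rose without amino acids (log2 fold change 0.44, SE 0.11, adjusted p = 0.00684) and passed no other main test.

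The GTPase paralogs Gnl2 and Gnl3 differed in their calls. Gnl2 had 69.8, 59.2 and 63.3 CPM in control, 68.2, 79.5 and 70.6 in starved, 70, 76.6 and 77.8 in re-added and 62.2, 64.4 and 61.1 in Rap libraries. Its starved values overlapped those of control and re-added libraries, and it passed no main test. Gnl3, known as nucleostemin and abundant in proliferating cells, had 36.1, 29.3 and 28.1 CPM in control, 38.8, 44.8 and 36.5 in starved, 49.1, 49.6 and 40.3 in re-added and 26.8, 24.4 and 26.6 in Rap libraries. Gnl3 rose without amino acids (log2 fold change 0.36, SE 0.12, adjusted p = 0.0316), a call lost in 10 of 20 alternatives, and fell with Rap (log2 fold change -0.84, SE 0.12, adjusted p = 0.00132). Whether the paralogs differ in these changes was not tested. Of the other 60S factors, the methyltransferase gene Nop2 rose on re-addition (0.63 ± 0.08 on the log2 scale) and fell with Rap (-0.55 ± 0.08), and of the main comparisons Nop16 passed only that with Rap (-0.47 ± 0.12, lost in 8 of 20 alternatives). Ebna1bp2 and Nip7 passed no main test.

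Multifunctional nucleolar proteins were the last role. Of these 4 genes 3 rose and 0 fell without amino acids, 2 rose and 0 fell on re-addition, and 3 fell and 0 rose with Rap in edgeR's test. Ncl, which encodes nucleolin, had 304, 320 and 325 CPM in control, 414, 483 and 444 in starved, 396, 432 and 433 in re-added and 337, 305 and 276 in Rap libraries. It rose without amino acids (log2 fold change 0.50, SE 0.09, adjusted p = 0.000793), overlapped the starved values on re-addition and fell with Rap (log2 fold change -0.46, SE 0.09, adjusted p = 0.00654), where it overlapped the controls. Npm1 had 407, 453 and 331 CPM in control, 354, 381 and 364 in starved, 366, 382 and 355 in re-added and 304, 286 and 304 in Rap libraries, and passed no main test; its Rap libraries lay below all others, and against control it fell (log2 fold change -0.41, SE 0.10, adjusted p = 0.00445). Nolc1 and Mybbp1a rose in both of the first comparisons and fell with Rap, but the rise of Nolc1 without amino acids (0.28 ± 0.09 on the log2 scale) was lost in 11 of 20 alternatives, DESeq2 and both other scaling factors among them. The levels of Mybbp1a were 118 ± 16, 177 ± 15.4, 247 ± 3.88 and 168 ± 4.5 CPM (mean ± SD, n = 3) in control, starved, re-added and Rap libraries.

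**Figure D4:**
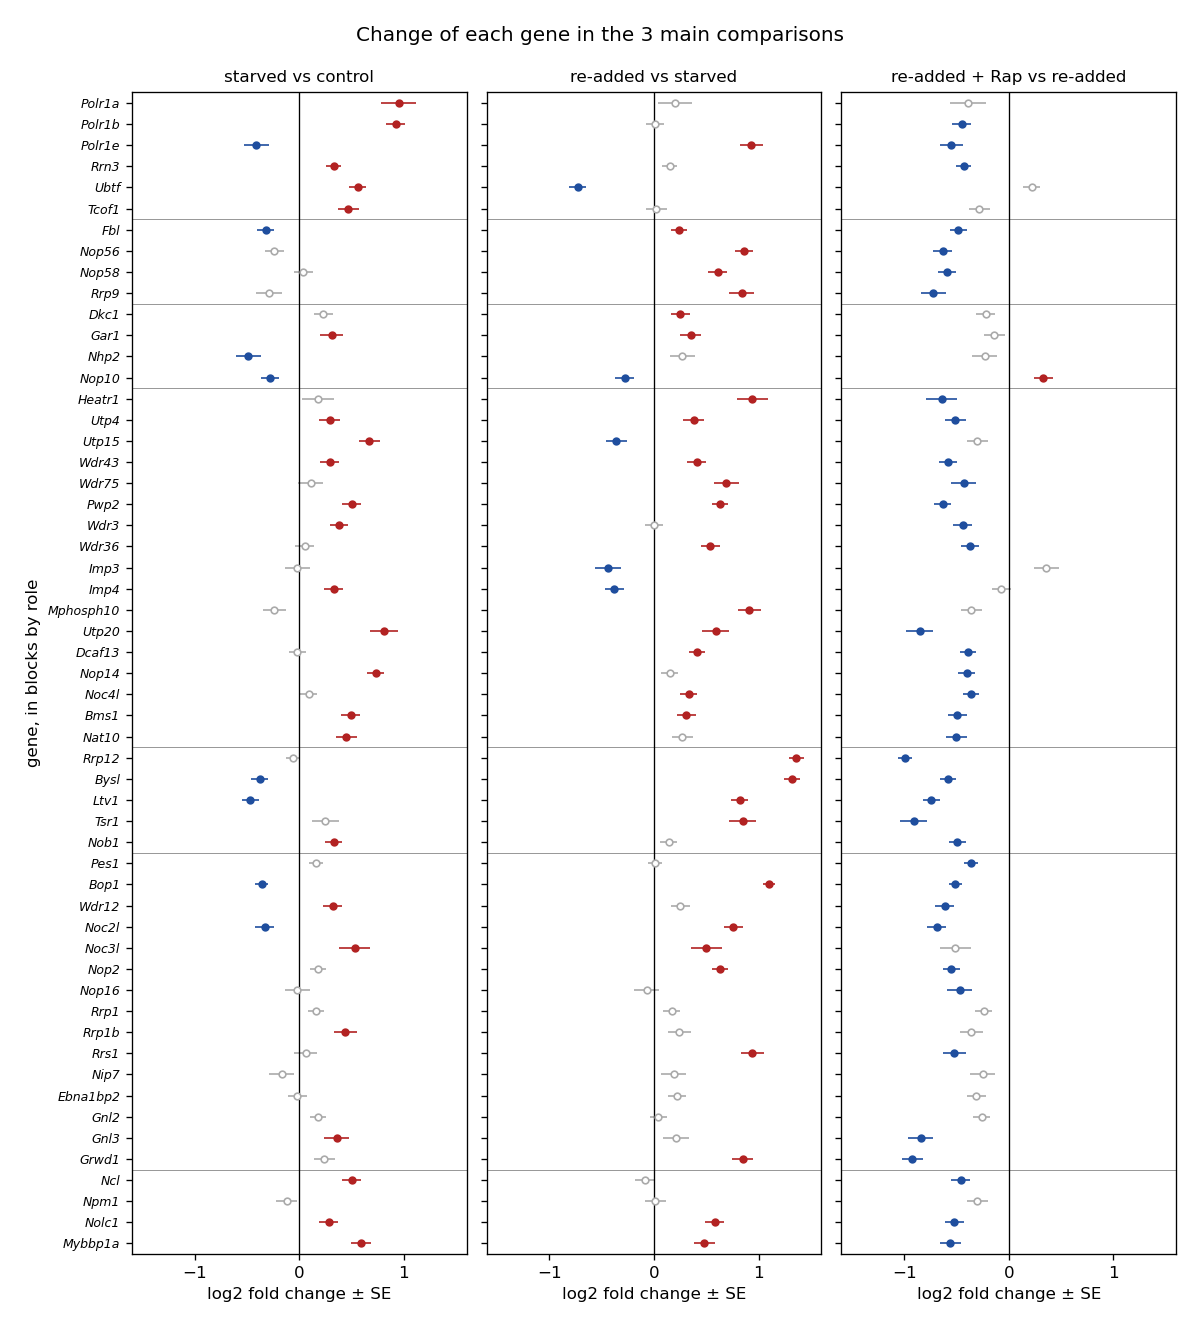
Log2 fold change ± SE of each of the 55 genes in the 3 main comparisons, in blocks by role. Filled points passed the test (adjusted p under 0.05, red higher, blue lower) and open points did not. On re-addition 30 filled points lie right of 0 and 5 left of it, and with Rap 37 lie left of it and Nop10 right of it.

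The remaining comparisons place the Rap and re-added groups against the others. Against the starved libraries, the Rap libraries were higher for 6 genes and lower for 16 (20.2% and 23.9% of all genes tested), with a median log2 fold change of -0.07. Bysl (0.74 ± 0.08), Bop1 (0.59 ± 0.06), Mphosph10 (0.55 ± 0.11), Rrs1 (0.42 ± 0.11), Polr1e (0.37 ± 0.12) and Rrp12 (0.36 ± 0.07) were the 6 that stood higher, and Utp15 (-0.66 ± 0.10), Gnl3 (-0.62 ± 0.12) and Ubtf (-0.51 ± 0.08) were among the 16. In matched libraries, with 1 starved library, 2 were higher and 13 lower (9.21% and 13.4% of all genes tested), and with upper-quartile factors 10 and 13. Against control, re-added libraries were higher for 44 genes and lower for 2, Nop10 and Imp3 (24.8% and 24.5% of all genes tested), with a median of 0.57. With the marker sum as a covariate these counts were 27 and 1, where 8.06% and 8.12% of all genes tested were called. The Rap libraries against control gave 20 higher and 8 lower (27.7% and 25.3% of all genes tested) with a median of 0.10. With that covariate 1 was higher and 3 were lower, where 5.96% and 5.61% of all genes tested were called. Controls overlap neither the re-added nor the Rap libraries in the marker sum. The counts of both comparisons with control and the other-cell transcripts therefore cannot be told apart.

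Genes with an E-box in a RefSeq window were also read in the 3 main comparisons, as a description without a test. Without amino acids 6 of the 11 such genes of this set rose and 1 fell, with a median log2 fold change of 0.29, as did 17 and 5 of the 35 with a window and no E-box, with a median of 0.23. Of the 11 genes 8 rose and 1 (Imp4) fell on re-addition, and 10 fell with Rap, with median log2 fold changes of 0.48 and -0.56. Of the 35 without 16 rose and 4 fell on re-addition, and 21 fell and 1 rose with Rap, with medians of 0.25 and -0.45. The 8 genes with the site after the start (Grwd1, Tsr1, Utp20, Ltv1, Wdr43, Mybbp1a, Utp4 and Pes1) all fell with Rap, with a median of -0.66. Over all genes tested with a window, 1338 have an E-box and 10751 do not. On re-addition 19.3% of those with an E-box rose and 27.2% fell (median -0.12), against 19.2% and 19.2% of those without (median -0.06). Without amino acids 33.3% of those with an E-box rose and 14.6% fell (median 0.11), against 25.4% and 15.3% of those without (median 0.02). With Rap both medians were 0.00, and 5.38% of those with an E-box fell and 6.05% rose, against 3.66% and 4.74%. Of 213 genes tested with the site after the start, 8 of them from this set, 10.8% fell and 4.23% rose with Rap (median -0.03). The 8 are among the 23 of these genes that fell. On re-addition 21.6% of the 213 rose and 27.2% fell (median -0.07), while 7 of the 8 rose and 0 fell.

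Other genes of the same pathway came from a list of 97 further ribosome biogenesis factors that holds none of the 55. They had more rises than falls on re-addition, and falls with Rap. This list, too, was chosen with earlier results of these data known. Of all genes tested, 24.3% rose and 14.6% fell without amino acids, 18.4% and 18.8% on re-addition, and 4.55% and 3.43% with Rap. Of the 97, all tested, 31 rose and 13 fell without amino acids, and 51 rose and 4 fell on re-addition (median log2 fold change 0.27). With Rap 32 of the 97 fell and 0 rose in edgeR's test (median -0.25). Their count of falls with Rap went down to 15 when any of re-added replicate 3, Rap replicate 2 or Rap replicate 3 was left out, to 16 without re-added replicate 2 and to 17 without Rap replicate 1, while DESeq2 gave 50 and a fit of the 6 libraries alone 66. Falls over all genes tested moved too, from 578 in the main fit to 1124 with DESeq2 and 2130 with the 6 libraries. They were 245 to 268 without 1 of the re-added or Rap libraries just named. Over all genes tested, 4101 rises and 2458 falls without amino acids were 3707 and 3006 with DESeq2 and 3524 and 2973 with RLE factors. They were 2984 and 2362 with the marker sum as a covariate and 2449 and 1750 with 6 libraries. Their shares in the matched libraries are given with the 55 genes above. With upper-quartile factors they became 2961 and 3679. The split of 31 and 13 among the 97 turned to 12 and 22 with these factors. It was 27 and 17 with DESeq2, 24 and 16 with RLE factors, 14 and 12 with the marker sum as a covariate, 11 and 8 with its 6 libraries and 7 and 6 in the matched libraries, and 18 rose without starved replicate 2. On re-addition 21 rose and 1 fell in the matched libraries, and the falls were 1 without starved replicate 3 or re-added replicate 3 and 2 without starved replicate 2, re-added replicate 1 or Rap replicate 3. Pno1, the partner of Nob1 in late 40S maturation, had 44.4, 46.3 and 37.3 CPM in control, 30.9, 34.7 and 30.4 in starved, 63.9, 65.1 and 64.9 in re-added and 43.6, 44.5 and 43.4 in Rap libraries. In starvation it fell (log2 fold change -0.42, SE 0.09, adjusted p = 0.0025), rose on re-addition (log2 fold change 1.01, SE 0.09, adjusted p = 4.30e-06) and fell with Rap (log2 fold change -0.56, SE 0.08, adjusted p = 0.00197). Nol12 and Nol10, both nucleolar, rose by 0.98 ± 0.08 and 1.12 ± 0.10 on the log2 scale on re-addition, and Nol10 fell with Rap (-0.51 ± 0.10).

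RNA polymerase III makes the 5S ribosomal RNA and transfer RNAs, and its 22 genes moved in both directions. The shares of all genes tested that rose and fell were 24.3% and 14.6% without amino acids, 18.4% and 18.8% on re-addition, and 4.55% and 3.43% with Rap. Of the 22 genes 10 rose and 3 fell without amino acids, 8 rose and 5 fell on re-addition, and 2 rose and 3 fell with Rap. Those that changed with Rap were Maf1 and Polr3gl, which rose, and Gtf3c6, Polr3d and Polr3e, which fell, the last 2 named after their values were seen. Without amino acids the count of 10 was 5 without starved replicate 2, with upper-quartile factors (beside 4 falls), with the covariate and with 6 libraries, and that of 3 was 1 without either of control replicates 1 and 2 or any of 5 libraries of the other groups. The matched libraries gave 1 rise and 0 falls there and 1 rise on re-addition. The 8 rises on re-addition were 4 without re-added replicate 3 and 5 without re-added replicate 2. The 3 falls with Rap were 0 without re-added replicate 3 in edgeR's test and 1 without re-added replicate 2, Rap replicate 2 or Rap replicate 3, and 8 with 6 libraries. Maf1, the repressor of RNA polymerase III and a known substrate of mTORC1, had 114, 133 and 109 CPM in control, 137, 166 and 145 in starved, 66.3, 57.8 and 60.8 in re-added and 105, 111 and 116 in Rap libraries. The re-added libraries were the lowest by a wide gap: Maf1 fell on re-addition (log2 fold change -1.28, SE 0.10, adjusted p = 2.05e-06) and was higher with Rap (log2 fold change 0.85, SE 0.10, adjusted p = 0.000311). Polr3gl, one of a pair of alternative subunits, had 17.9, 21.6 and 14.1 CPM in control, 21.5, 24.7 and 22 in starved, 10.3, 9.05 and 8.23 in re-added and 14.1, 16.6 and 13.7 in Rap libraries, and also fell on re-addition (log2 fold change -1.31, SE 0.15, adjusted p = 4.70e-05). Gtf3c6, a subunit of the factor TFIIIC, had 19.6, 18.9 and 17.3 CPM in control, 20.9, 21.4 and 20.9 in starved, 34.6, 34.1 and 34.3 in re-added and 27.7, 26.1 and 27.4 in Rap libraries, and rose (log2 fold change 0.70, SE 0.07, adjusted p = 1.64e-05).

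In the MYC network, a list of 11 genes, falls predominated on re-addition. The list holds genes of MYC proteins, their partner MAX and repressors that compete for it, and also Mlx. Among all genes tested, 24.3% rose and 14.6% fell in starvation, 18.4% and 18.8% on re-addition, and 4.55% and 3.43% with Rap. Of the 11 genes 5 rose and 3 fell in starvation, and 1 rose and 7 fell after re-addition. With Rap 5 rose and 0 fell in edgeR's test. The 1 that rose on re-addition was Mlx (log2 fold change 0.59), the partner of the glucose-sensing Mondo proteins, and beside the genes below Mxd1 rose with Rap (0.56), both named after their values were seen. The 5 rises with Rap were 3 without re-added replicate 2, Rap replicate 1 or Rap replicate 2, and the 5 rises without amino acids were 2 in the matched libraries. Myc itself was scarce, with 4.64, 6.54 and 5.3 CPM in control, 8.77, 10.3 and 8.63 in starved, 5.35, 4.14 and 5.41 in re-added and 4.44, 4.25 and 5.69 in Rap libraries. It was higher without amino acids (log2 fold change 0.75, SE 0.18, adjusted p = 0.00688) and lower after re-addition (log2 fold change -0.89, SE 0.18, adjusted p = 0.0026), and did not differ detectably with Rap (adjusted p = 0.898). Mycn had 8.98, 10.8 and 9.68 CPM in control, 14.3, 17.3 and 16.3 in starved, 7.83, 8.15 and 9.29 in re-added and 11.1, 11.7 and 12.8 in Rap libraries, and took the same course with a higher level under Rap (log2 fold change 0.49, SE 0.12, adjusted p = 0.0292), a call lost in 7 of 20 alternatives. Mycl did not exceed 1.59 CPM in any library. Max, with 72.3, 83.9 and 75.6 CPM in control, 82.2, 86.9 and 82.5 in starved, 87.6, 92.3 and 89.9 in re-added and 88.9, 86.8 and 77.8 in Rap libraries, passed none of the 3 tests.

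Of these lists, Mnt had the largest change on re-addition. Mnt (chromosome 11, 74830920 to 74845725, plus strand), which pairs with MAX and opposes MYC at E-boxes, had 32.9, 36.3 and 42.4 CPM in control, 67.9, 81.2 and 77.8 in starved, 16.5, 16.6 and 15.9 in re-added and 47.8, 49.3 and 48.6 in Rap libraries. No 2 groups overlapped: the starved libraries were the highest, then the Rap libraries, the controls and the re-added libraries. Mnt rose without amino acids (log2 fold change 1.02, SE 0.10, adjusted p = 1.30e-05), fell on re-addition (log2 fold change -2.21, SE 0.10, adjusted p = 5.01e-08) and rose with Rap (log2 fold change 1.57, SE 0.10, adjusted p = 3.92e-06). Mxi1 had 38.4, 36.4 and 38.8 CPM in control, 41.3, 48.3 and 49.4 in starved, 17.2, 16.6 and 17.8 in re-added and 33.7, 31.4 and 32.4 in Rap libraries, and fell on re-addition (log2 fold change -1.43, SE 0.08, adjusted p = 2.78e-07) and rose with Rap (log2 fold change 0.92, SE 0.08, adjusted p = 6.00e-05). Mxd4 had 72.2, 81.8 and 84.3 CPM in control, 84.8, 82.9 and 100 in starved, 37, 34.4 and 36.1 in re-added and 101, 96.6 and 87.2 in Rap libraries. It passed no test without amino acids, fell on re-addition (log2 fold change -1.32, SE 0.09, adjusted p = 1.32e-06) and rose with Rap (log2 fold change 1.41, SE 0.09, adjusted p = 5.76e-06), where it overlapped the starved libraries. For Mnt, Mxi1 and Mxd4 the calls on re-addition and with Rap held in all 20 alternatives. Whether these transcripts bear on the 55 genes was not tested.

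**Figure D5:**
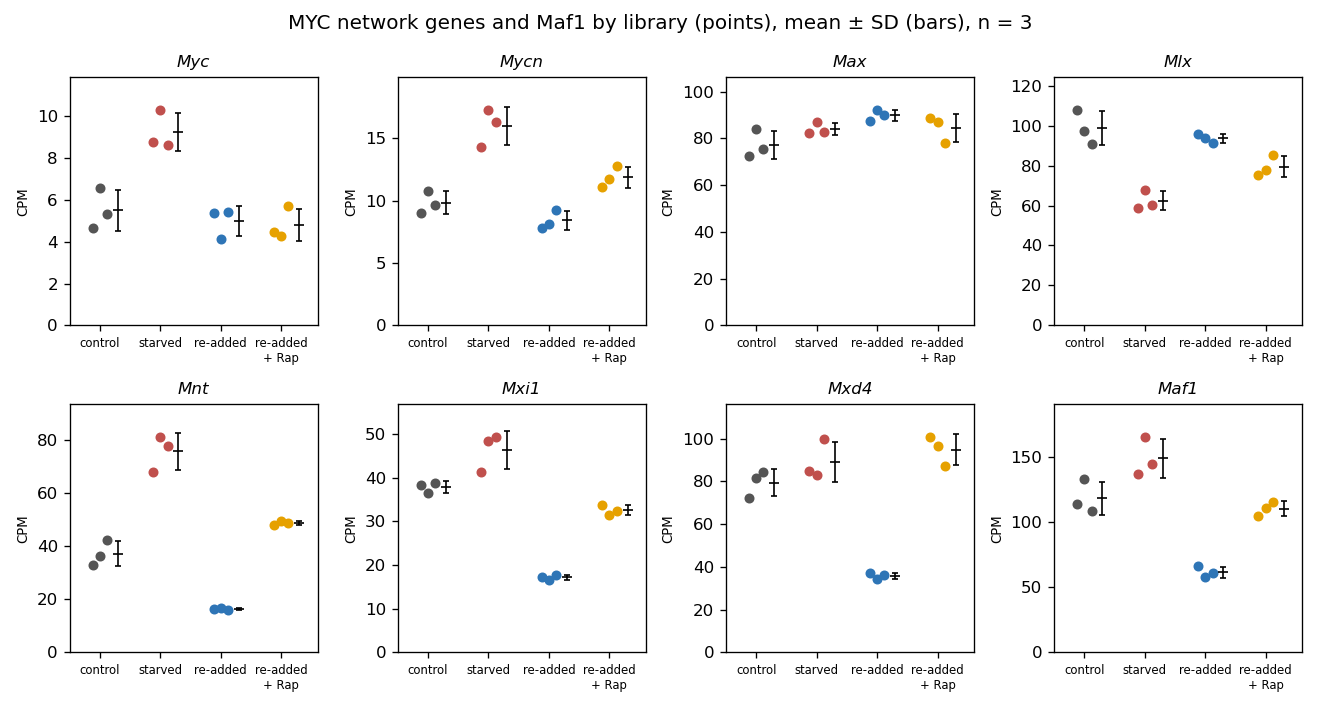
CPM of 7 genes of the MYC network and of Maf1 in each library (points) with mean ± SD (bars, n = 3), on axes from 0. Mnt, Mxi1, Mxd4 and Maf1 have their lowest values in the 3 re-added libraries, while Max stays between 72.3 and 92.3 CPM in all 12.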

How the data were processed

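Total RNA of 12 MIN6 libraries was sequenced as paired ends of 150 bases, per the labels' protocols. The authors deposited raw read counts per Ensembl gene and library, with exon coordinates and lengths per the file headers. They also deposited TPM values with gene names, which equal counts per exon length rescaled to a common sum within 5.0e-05, and 0 of its columns were left unassigned. The submitters' processing notes name GRCm38.p6, Subread 2.0.1 and limma 3.46.0 with no role. The aligner is not named, and the strand setting is not given in the sources used here. Hence reads of overlapping and antisense genes and of near-identical copies cannot be told apart. Exons of 21 of the 55 genes overlap another gene, and the other 34 were also counted alone.

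Counts were analysed with edgeR 4.0.16 in R 4.3.3: filterByExpr (minimum count 10, minimum total 15) left 16844 of 49315 genes (99.9% of counts). TMM factors scaled the libraries, and 1 quasi-likelihood model of all 12 libraries (8 residual degrees of freedom) gave all contrasts and the F test. Benjamini-Hochberg adjustment was over all genes tested, with a threshold of 0.05, and a gene rose or fell when it passed it. SE is the absolute log2 fold change divided by the square root of the F statistic. Sums over gene lists use raw library totals. The routines were tested on simulated counts. Alternatives were DESeq2 1.42.0, other scaling factors, no filter, a replicate block, the marker sum as a covariate, subsets of libraries, each library left out, and, chosen after seeing the data, the 34 genes without overlap. Non-overlap means that all 3 libraries of 1 group lie above or below all 3 of the other.

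The 55 genes and all lists were chosen with earlier results of these data known. Genes were named by rule: the 2 with the highest TPM in each role, the 4 largest rises and 4 largest falls among called genes in each main comparison, genes called against the majority, the paralog pairs, the 3 smallest adjusted p on re-addition in each further list, and Myc, Mycn, Mycl and Max. Other genes are given by their place in a complex or role. Coordinates are 1-based from the count files. Promoter sequences are RefSeq's (GRCm38.p6), matched by symbol for 46 of the 55 genes, and motifs were matched exactly.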

Additional observations from a re-analysis of the deposited data

How the results depend on the processing

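Counts below are genes of the 55 higher and lower, then the median log2 fold change. Starved against control, 24 and 8 (0.18), gave 0.12 as median with DESeq2 and with RLE factors, 0.04 with upper-quartile factors, 0.11 with the marker sum as a covariate, and 9, 5 and 0.11 in the matched libraries. Upper-quartile factors moved the median of all genes tested to -0.13 there, from 0.01, so the set stood about as far above it. Re-added against starved, 30 and 5 (0.31), had a median of 0.37 with upper-quartile factors and 18, 2 and 0.22 in the matched libraries. Rap against re-added, 1 and 37 (-0.47), had 3 higher with DESeq2 and with only its own 6 libraries, and 0 higher with upper-quartile factors, without a filter and in the matched libraries. Its lower count was 46 with DESeq2, 50 with only 6 libraries and 32 to 44 under the others run on all 55 genes and all replicates. Rap against starved, 6 and 16 (-0.07), had 10 higher with upper-quartile factors (median -0.02) and with 6 libraries, 2 higher in the matched libraries (median -0.21), and a median of -0.17 with the covariate. Re-added against control, 44 and 2 (0.57), had a median of 0.49 with upper-quartile factors, and 27, 1 and 0.43 with the covariate. Rap against control, 20 and 8 (0.10), had a median of 0.04 with DESeq2 and RLE factors and 0.01 with upper-quartile factors, 12 higher with 6 libraries, and 1, 3 and a reversed median of -0.06 with the covariate. No matched libraries exist for comparisons of control with re-added or Rap groups. Of the 34 genes without overlapping exons 16 rose and 4 fell without amino acids, 19 and 4 changed on re-addition, 1 and 21 with Rap, 8 fell in Rap against starved, 26 rose in re-added against control, 5 fell in Rap against control, and 33 differed in the F test.

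Leaving out each library in turn gave, in the order of the comparisons above, 18 to 23 higher and 7 to 13 lower (median 0.13 to 0.25), 25 to 33 and 3 to 5 (0.31 to 0.35), 0 to 2 and 26 to 44 (-0.50 to -0.45), 5 to 8 and 12 to 18 (-0.11 to -0.05), 42 to 44 and 2 to 4 (0.55 to 0.59), and 15 to 22 and 6 to 10 (0.05 to 0.11), with 51 to 55 in the F test. The count of 13 lower in starved libraries came without control replicate 3, and 3 lower on re-addition without starved replicate 3. Fits without 1 library kept at least 2 per group. Of the single calls, 14 of 32, 19 of 35 and 23 of 38 held in all 20 alternatives in the 3 main comparisons, and 0 reversed. The cause of these shifts was not tested.

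Deviations of same-numbered libraries correlated from -0.28 to 0.85 (median -0.06, 18 pairs), and those of other pairs from -0.85 to 0.69 (median 0.02, 36 pairs). Starved and re-added replicates 1 correlated at 0.85 and replicates 2 at 0.72, while starved 1 with re-added 2 gave -0.72. These libraries also differ in the markers of other cells, so the values cannot settle whether replicate numbers pair the libraries. With the replicate number as a block the 3 main comparisons gave 23 and 8, 29 and 5, and 0 and 34. All 55 genes had at least 302 reads per library on average, and what depth adds to their error was not tested.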

Other observations

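Host genes of small nucleolar RNAs, whose introns carry the guide RNAs of the snoRNPs, had few calls in the main comparisons. Of 15 such genes 14 were tested. Among all genes tested 24.3% rose and 14.6% fell in starvation, 18.4% and 18.8% on re-addition, and 4.55% and 3.43% with Rap. Of the 14, in starvation 1 rose (Snhg17) and 1 fell (Snhg8), and after re-addition 1 rose and 3 fell. With Rap 2 fell and 0 rose in edgeR's quasi-likelihood test. The counts on re-addition were 3 and 3 with DESeq2 and 2 and 3 with either other scaling and 2 and 0 in the matched libraries, and those in starvation 0 and 2 with DESeq2 and with upper-quartile factors. Snhg17, Snhg8, Zfas1 and Snhg1 are named here after their values were seen. Snhg5 had 10.3, 13.1 and 8.34 CPM in control, 8.65, 8.56 and 6.45 in starved, 12.5, 14.9 and 15.3 in re-added and 8.67, 7.23 and 7.85 in Rap libraries. It rose on re-addition (log2 fold change 0.85, SE 0.18, adjusted p = 0.00272) and fell with Rap (-0.85, SE 0.18, adjusted p = 0.0126), the latter lost in 4 of 20 alternatives. Snhg3 (-0.71), Snhg4 (-0.67) and Zfas1 (-0.62) fell on re-addition on the log2 scale, and Snhg1 (-0.62) fell with Rap. These transcripts are spliced and decay after the snoRNAs are cut out, so their level is not the level of the snoRNAs, which was not measured here.

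Annotated loci that overlap ribosomal RNA varied between libraries of 1 group. Gm42418 (chromosome 17, 39846958 to 39848788, plus strand) had 401, 633 and 691 CPM in control, 673, 6343 and 643 in starved, 757, 605 and 501 in re-added and 976, 2016 and 3855 in Rap libraries. Starved replicate 2 and Rap replicates 2 and 3 stand apart. The rise without amino acids (log2 fold change 2.15, SE 0.78, adjusted p = 0.0457) was lost in 14 of 20 alternatives and was 0.20 without starved replicate 2. Gm26917 beside it ran from 66.5 to 140 CPM and passed no main test, and AY036118 had no reads. How ribosomal RNA was removed before sequencing is not given in the sources used here, so these values do not measure ribosomal RNA synthesis.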
